A study of Mus musculus with 6 samples.

Results

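Chemokine and cytokine genes were examined in mouse AE9a leukemia cells of 2 marrow regions, central (CBM) and endosteal (EBM). They were 10 genes picked by symbol, Ccl3, Ccl4, Ccl6, Ccl9, Cxcl2, Cxcl10, Tnf, Osm, Il6 and Tgfb1, of the 54532 genes in the deposited count table, and all 10 had a row there. AE9a is a truncated splice form of the AML1-ETO fusion protein. It was put into c-Kit+ marrow progenitors of C57BL/6 mice by retrovirus, and the leukemia was carried forward by serial transplantation, so that the cells came from 1 transplantable model at the third generation. CBM cells were flushed from femurs and tibias, and EBM cells were then freed from the flushed bones with collagenase I. There were 3 libraries of each region, and digestion and region cannot be told apart. Mice were obtained as young adult females, and the age at which marrow was taken was not given. Neither the gate used to isolate the RNA-seq cells nor whether libraries came from separate mice was given, so p-values measure the spread between libraries, which may be technical.

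Chemokines are small secreted proteins that draw leukocytes along a gradient by binding G protein-coupled receptors. CC chemokines such as Ccl3 and Ccl4, and Ccl6 and Ccl9 (rodent ligands of Ccr1), act mainly on monocytes, macrophages and lymphocytes. Of the CXC chemokines, Cxcl2 draws neutrophils through Cxcr2 and Cxcl10 draws T cells through Cxcr3. Tnf and Il6 are inflammatory cytokines that NF-κB induces in many myeloid cells, Osm is an Il6 family cytokine, and Tgfb1 is secreted in a latent form and is known for holding hematopoietic stem cells in quiescence.

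The region before the transcription start is shown for Cxcl2, Cxcl10, Tnf and Il6, which had the widest spread between libraries among the 6 genes that passed the count filter. It is also shown for Tgfb1, the most abundant of the 10 per length. The 250 bases before the RefSeq start (GRCm38.p6) are given 5′ to 3′ on the strand of the gene. They lie at chr5:90903649-90903898 (plus strand), chr5:92348890-92349139 (minus), chr17:35202008-35202257 (minus), chr5:30012864-30013113 (plus) and chr7:25686752-25687001 (plus). The window of Cxcl2 ends inside the deposited gene span, which starts at chr5:90903871, so distances for Cxcl2 hold for the RefSeq start only. Capitals mark matches to a motif searched on both strands.
Cxcl2: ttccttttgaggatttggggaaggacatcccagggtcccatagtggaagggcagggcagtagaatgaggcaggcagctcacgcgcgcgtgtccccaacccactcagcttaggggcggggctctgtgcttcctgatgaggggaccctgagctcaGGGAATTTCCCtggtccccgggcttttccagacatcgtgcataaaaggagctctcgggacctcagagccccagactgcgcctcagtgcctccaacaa
Cxcl10: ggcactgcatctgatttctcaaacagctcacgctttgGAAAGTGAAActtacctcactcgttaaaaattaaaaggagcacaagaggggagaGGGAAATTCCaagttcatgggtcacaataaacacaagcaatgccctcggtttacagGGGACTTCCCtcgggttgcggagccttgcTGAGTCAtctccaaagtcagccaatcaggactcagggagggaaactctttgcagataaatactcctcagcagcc
Tnf: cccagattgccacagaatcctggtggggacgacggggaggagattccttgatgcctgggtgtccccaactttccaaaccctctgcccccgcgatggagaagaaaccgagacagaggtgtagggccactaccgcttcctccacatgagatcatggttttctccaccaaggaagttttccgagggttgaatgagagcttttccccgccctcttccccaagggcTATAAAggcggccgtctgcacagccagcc
Il6: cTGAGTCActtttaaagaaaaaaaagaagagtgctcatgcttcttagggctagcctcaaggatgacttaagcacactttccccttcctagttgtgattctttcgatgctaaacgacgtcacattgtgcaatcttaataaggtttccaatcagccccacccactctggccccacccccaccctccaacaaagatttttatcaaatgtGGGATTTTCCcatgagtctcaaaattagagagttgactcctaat
Tgfb1: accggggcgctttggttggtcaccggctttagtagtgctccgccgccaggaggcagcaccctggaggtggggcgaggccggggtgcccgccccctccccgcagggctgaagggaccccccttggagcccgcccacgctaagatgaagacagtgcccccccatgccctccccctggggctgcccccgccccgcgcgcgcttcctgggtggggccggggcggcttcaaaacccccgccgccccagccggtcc
The motifs were the 10-base NF-κB consensus, TGANTCA for AP-1, GAAA, a pair of any bases and GAAA for interferon response elements, TTCNNNGAA for STAT factors and the TATA box TATAAA. Cxcl2 held the palindrome-like NF-κB match GGGAATTTCC 97 to 88 bases before the start, with an overlapping match on the other strand. Cxcl10 held NF-κB matches 159 to 150 and 103 to 94 bases before the start, an AP-1 match at 74 to 68 and an interferon response match at 213 to 204. Il6 held the NF-κB match GGGATTTTCC at 44 to 35 and an AP-1 match at 249 to 243. Tnf held only TATAAA at 29 to 24, and Tgfb1, with 75.2% G and C, held no match. Among the promoters not shown, that of Ccl9, a gene near the counting floor, held an NF-κB match at 35 to 26, an AP-1 match at 53 to 47 and 3 TATA matches, and those of Ccl3 and Ccl6 held none. No promoter of the 8 held the STAT motif. Of 32851 RefSeq promoter windows of this length, 3.9% held the NF-κB consensus, 6.75% the AP-1 motif, 2.98% the interferon motif, 7.02% the STAT motif and 12.4% TATAAA. Promoters of 8 of the 10 genes were in the RefSeq table, all but Ccl4 and Osm. A match is a description of letters and says nothing on binding.

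Total counts were between 16436526 and 19462964 per library, so 3 counts, taken as the floor, stood for 0.149 to 0.193 CPM (counts scaled to library size with TMM factors). Values of 3 libraries are listed in replicate order, 1 to 3. Floors and Poisson intervals cover counting error only, whereas intervals of a log2 fold change also hold the spread between libraries. The first principal component of log2 CPM, with 53.0% of the variance, did not follow the regions: CBM replicate 1 (-38.5), EBM replicate 1 (-36.4) and EBM replicate 2 (-19.8) lay on one side, and CBM replicate 3 (5.81), CBM replicate 2 (42.9) and EBM replicate 3 (46.0) on the other. Of the leukemic progenitor markers, Kit was at 196 to 239 CPM and Myb at 268 to 352 CPM in every library, while Flt3 and Sox4 stayed at 16 counts or fewer. Cd34, a progenitor marker, varied instead, with 15.4, 1.16 and 4.86 CPM in the CBM libraries and 16.4, 10.5 and 1.22 CPM in those of EBM. The mast cell and basophil gene Ms4a2 was at 652 to 1051 CPM. Osteoblast and stromal markers summed to at most 1.45 CPM, with Sp7 and Alpl at 0 counts in all 6 libraries. Summed markers of other lineages were at 1.03 to 3.16 CPM for endothelial cells, 9.45 to 13.4 for T and NK cells, 6.81 to 14.5 for B cells, 258 to 565 for osteoclasts (nearly all Acp5) and 2211 to 5448 for erythroid cells. In bulk RNA, fewer cells of a type and less RNA per cell cannot be told apart.

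The 10 genes covered a wide range of levels. Per kilobase of gene length, the mean over the 6 libraries was 70.0 CPM for Tgfb1, 13.5 for Cxcl2, 11.8 for Osm, 7.80 for Cxcl10, 7.14 for Tnf and 2.03 for Il6. It was 0.428 for Ccl3, 0.312 for Ccl6, 0.263 for Ccl4 and 0.209 for Ccl9. On this scale the lowest Tgfb1 library (40.2) stood above the highest Cxcl2 library (34.9), while every other pair of neighbours in the order overlapped between libraries. By length-scaled level Tgfb1 ranked 727 of the 13352 genes tested, Cxcl2 4294 and Il6 9806. The filter on low counts passed 6 of the 10 genes and left out the 4 CC chemokines.

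By edgeR's quasi-likelihood test, 0 of the 6 tested genes passed an adjusted p of 0.05 between the regions, where 0% of all 13352 genes were called. An unadjusted p under 0.05 was met by 0 of the 6, against 7.91% of all genes. This count was higher in some other fits. It was 2 of 10 (Cxcl2 and Cxcl10) when every gene with at least 1 count was tested, against 4.9% of all genes, and 2 of 6 (the same pair) under the replicate block, against 9.01%. Without CBM replicate 1 it was 4 of 8 (Cxcl2, Cxcl10, Tnf and Il6), against 6.98%, and without EBM replicate 3 it was 1 of 8 (Cxcl2), against 8.22%. Libraries of the regions overlapped for all 6, whereas they did not overlap for 15.1% of all genes. All 6 had a positive log2 fold change towards EBM, with a median of 1.02, beside a median of 0.00 over all genes tested and 50.4% of them above 0. DESeq2 called 0 of the genes at an adjusted p under 0.05, against 1.39% of the genes to which it gave one, and limma-voom called 0. At an unadjusted p under 0.05 each of these tools had 1 of them, Cxcl10, against 4.05% of all genes in DESeq2 and 8.09% in limma-voom. A p that misses the threshold does not show that the levels are the same, and the intervals below give the differences that these libraries leave room for.

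**Figure D1:**
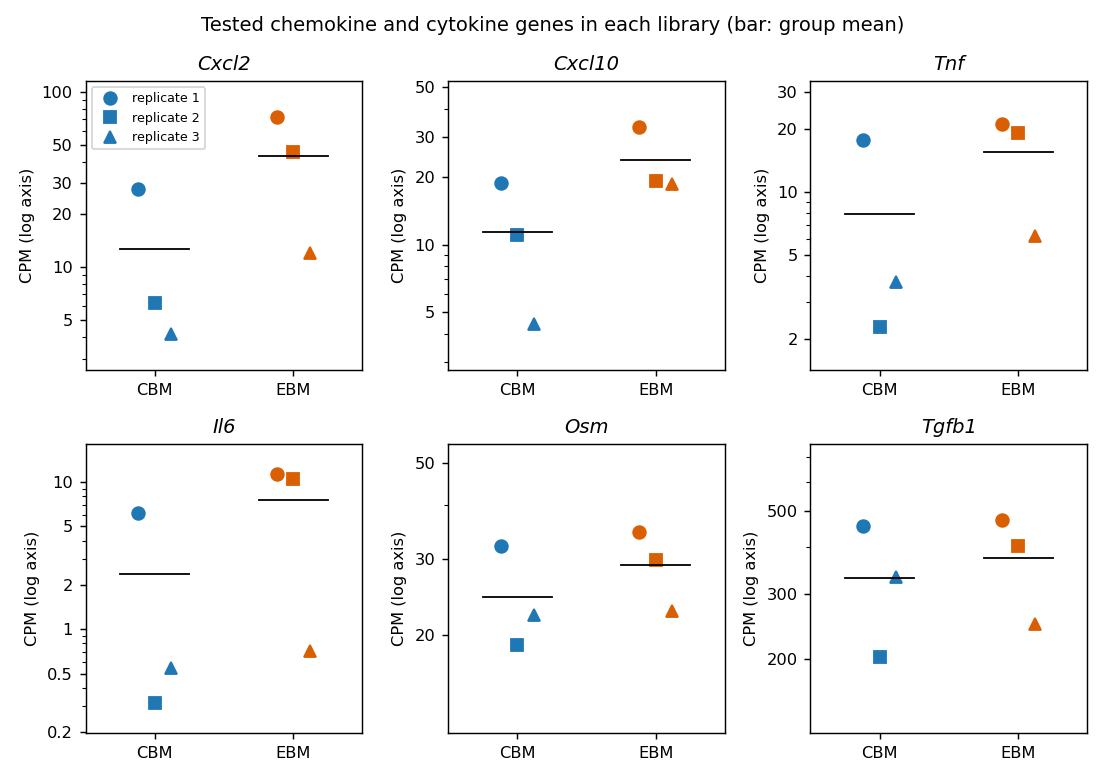
TMM-scaled CPM (log axes, a different range in each panel) of the 6 tested genes in the CBM (blue) and EBM (orange) libraries, with the replicate number as the symbol and the group mean as a bar. In every panel EBM replicate 1 is highest and CBM replicate 1 lies above EBM replicate 3.

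Cxcl2 (ENSMUSG00000058427, chr5:90903871-90905938, plus strand of GRCm38, with up to 4 exons) had the largest log2 fold change of the 6 tested genes. It was at 27.9, 6.26 and 4.12 CPM in the CBM libraries and 72.2, 45.6 and 12.02 CPM in those of EBM. EBM replicates 1 and 2 were above every CBM library, and EBM replicate 3 was below CBM replicate 1. The means were 12.8 ± 13.1 CPM for CBM against 43.3 ± 30.1 CPM for EBM (SD, n = 3 each), and the log2 fold change was 1.77 (standard error 0.87, 95% interval -0.30 to 3.84, edgeR adjusted p = 0.685). The exact permutation test gave a two-sided p of 0.2, where the smallest that 3 against 3 libraries allow is 0.1. The log2 fold change without CBM replicate 1 came to 3.06 (edgeR adjusted p = 0.472), and without EBM replicate 1 it was 1.18.

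Cxcl10 (ENSMUSG00000034855, chr5:92346638-92348889, minus strand), a chemokine induced by interferon, lies inside the span of Art3 on the other strand, which had at most 3 counts in any library. It had 331, 209 and 89 raw counts in the CBM libraries and 604, 344 and 290 raw counts in those of EBM. The regions overlapped only through CBM replicate 1 (18.8 CPM), which stood just above EBM replicate 3 (18.6 CPM). The means were 11.4 ± 7.22 CPM for CBM against 23.7 ± 8.35 CPM for EBM (SD, n = 3 each), 2.08-fold apart. The log2 fold change was 1.06 (standard error 0.51, 95% interval -0.15 to 2.26, edgeR adjusted p = 0.678), and 0.67 without CBM replicate 3 or 1.62 without CBM replicate 1.

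Tnf (ENSMUSG00000024401, chr17:35199381-35202007, minus strand) encodes a cytokine made as a membrane protein and shed by Adam17. It was at 17.8, 2.26 and 3.72 CPM in the CBM libraries and 21.2, 19.1 and 6.17 CPM in those of EBM. CBM replicate 1 lay with the high EBM libraries, and EBM replicate 3 lay nearer to the low CBM libraries. The log2 fold change was 0.98 (standard error 0.81, 95% interval -0.95 to 2.91, edgeR adjusted p = 0.866), and it was 2.37 without CBM replicate 1, 0.54 without CBM replicate 2 and 0.63 without CBM replicate 3.

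Il6 (ENSMUSG00000025746, chr5:30013114-30019981, plus strand) signals through Il6ra and Il6st to STAT3. Its raw counts were 109, 6 and 11 in the CBM libraries and 206, 188 and 11 in those of EBM. They formed a high set of CBM replicate 1 and EBM replicates 1 and 2, between 6.20 and 11.4 CPM, and a low set of the remaining libraries, between 0.316 and 0.707 CPM. The fold between the highest and the lowest library was 19.6 within CBM and 16.1 within EBM, while the means differed 3.19-fold, at 2.35 ± 3.33 CPM for CBM against 7.51 ± 5.91 CPM for EBM (SD, n = 3 each). A fold between extremes and a ratio of means are unlike measures. On the log2 scale, the SD of log2 CPM within regions was 2.13. The log2 fold change between them was 1.69 (standard error 1.26, 95% interval -1.30 to 4.68, edgeR adjusted p = 0.830). It was 4.10 without CBM replicate 1, 2.22 without EBM replicate 3 and 1.17 without CBM replicate 2.

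Osm (ENSMUSG00000058755, chr11:4236420-4241026, plus strand) varied least, with 32.2, 19.0 and 22.2 CPM in the CBM libraries and 34.7, 29.8 and 22.8 CPM in those of EBM. Its log2 fold change was 0.25 (standard error 0.24, 95% interval -0.32 to 0.82, edgeR adjusted p = 0.900), and it was 0.50 without CBM replicate 1, 0.39 without EBM replicate 3, 0.10 without CBM replicate 2 and 0.11 without EBM replicate 1. Tgfb1 (ENSMUSG00000002603, chr7:25687002-25705077, plus strand, with up to 7 exons) was at 457, 203 and 333 CPM in the CBM libraries and 474, 402 and 249 CPM in those of EBM. Its log2 fold change was 0.18 (standard error 0.34, 95% interval -0.62 to 0.99, edgeR adjusted p = 0.976), and the sign turned without CBM replicate 2 (-0.072) and without EBM replicate 1 (-0.023). It was 0.49 without CBM replicate 1 and 0.39 without EBM replicate 3. The exact two-sided permutation p was 0.2 for each of Cxcl10, Tnf and Il6, 0.4 for Osm and 0.6 for Tgfb1. For Osm and Tgfb1 a change of 1 or more on the log2 scale in either direction was outside the 95% interval.

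**Figure D2:**
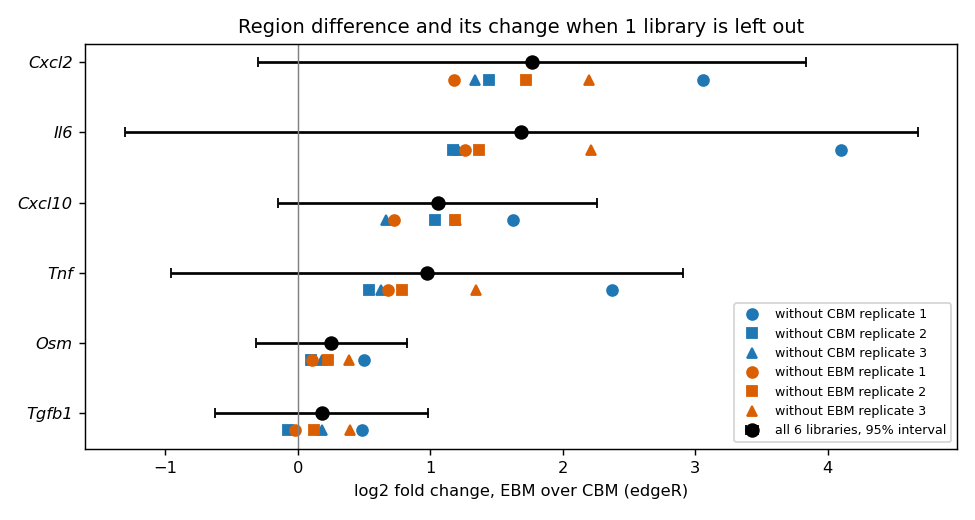
Log2 fold change of EBM over CBM (x axis) for the 6 tested genes, with the 95% interval over all 6 libraries in black and, below it, the value with each library left out. Every interval holds 0, and leaving out CBM replicate 1 moves Il6 to 4.10, Cxcl2 to 3.06 and Tnf to 2.37.

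The 6 genes shared part of an order of libraries that was not the order of regions, a pattern noted after their values were seen. EBM replicate 1 was the highest library for 6 of 6, against 15.8% of all genes tested, and CBM replicate 1 was above EBM replicate 3 for 6 of 6, against 49.7%. EBM replicate 2 was second for Cxcl2, Cxcl10, Tnf and Il6, and CBM replicate 1 for Osm and Tgfb1. CBM replicate 2 was lowest for Tnf, Il6, Osm and Tgfb1, and CBM replicate 3 for Cxcl2 and Cxcl10. The SD of log2 CPM within regions was 2.13 for Il6, which ranked 48 of the 13352 genes, 1.39 for Cxcl2 (rank 241), 1.28 for Tnf (rank 309) and 0.81 for Cxcl10 (rank 871). It was 0.54 for Tgfb1 and 0.35 for Osm, beside a median of 0.22 over all genes. Cpa3, a mast cell protease gene, was also high in CBM replicate 1 and EBM replicates 1 and 2. It was at 224, 3.74 and 44.3 CPM in the CBM libraries and 210, 180 and 5.20 CPM in those of EBM. Fcer1a was high in the same libraries, from 3.47 CPM in EBM replicate 3 to 106 CPM in CBM replicate 1. Unlike the 6 genes, both peaked in CBM replicate 1. For both, CBM replicate 3 was above EBM replicate 3 (17.6 against 3.47 CPM for Fcer1a), which among the 6 genes held for Tgfb1 only. The 6 mast cell and basophil markers summed to 666 to 1384 CPM in CBM and 792 to 1247 CPM in EBM, lowest in CBM replicate 2 and EBM replicate 3, with most of the sum from Ms4a2. Other genes of this list had another order. Ms4a2 was at 1051, 652 and 1013 CPM in the CBM libraries and 932, 987 and 782 CPM in those of EBM. Prss34 (4.95 CPM) and Mcpt8 (23 counts) were highest in CBM replicate 2, and Mcpt4 had at most 7 counts. Their part in the levels of the cytokine genes was not tested.

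Genes that collagenase digestion and other dissociation of tissue are known to induce were also read, since only EBM cells were digested. Of 20 such genes, all tested, 15 were higher and 5 lower in EBM (median 0.36 on the log2 scale), and 0 passed an adjusted p of 0.05 in edgeR (3 above and 1 below at an unadjusted p under 0.05, where 4.01% of all genes were higher and 3.9% lower). The 4 were Hspa1a (log2 fold change 4.40, edgeR adjusted p = 0.108), Hspa1b (3.74, edgeR adjusted p = 0.121), Nr4a1 (2.89, edgeR adjusted p = 0.435) and, lower in EBM, Dusp1 (-1.13, edgeR adjusted p = 0.361). Regions did not overlap for 4 of the 20, against 15.1% of all genes. These were the heat shock genes Hspa1a and Hspa1b and Junb, higher in EBM, and Dusp1, lower in EBM. Nr4a1, an immediate early nuclear receptor, was at 12.1, 2.32 and 4.56 CPM in the CBM libraries and 73.6, 56.6 and 10.2 CPM in those of EBM, which is the order of libraries seen for Tnf and Il6. For the 20 genes the mean log2 CPM, after each gene's mean was subtracted, was 0.12, -0.42 and -0.82 in the CBM libraries and 0.47, 0.36 and 0.29 in those of EBM. By this mean CBM replicate 1 was the highest CBM library here too. EBM replicate 3, low for Tnf and Il6, had a mean above that of every CBM library. By single genes, Fos, Fosb, Jun, Egr1, Ier3, Nr4a1, Dusp1 and Zfp36 were lower in EBM replicate 3 than in CBM replicate 1. The rest of the list was higher there. The mean includes Hspa1a and Hspa1b and was not taken without them, so it does not set the list apart from Tnf and Il6. The part of digestion in the cytokine genes was not tested.

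By Pearson's r of log2 CPM over the 6 libraries, the genes most like Cxcl2 were Aipl1 (r = 0.994) and Gm45716 (r = 0.992), and those most like Tnf were Eid3 (r = 0.995) and Bmp2 (r = 0.994). Bmp2, a bone morphogenetic protein, was at 78.1 to 285 CPM in CBM and 157 to 375 CPM in EBM. Rilpl2 and Pyy were most like Il6, Usp11 and Gm37671 most like Cxcl10, A930005H10Rik and Plcl2 most like Osm, and Cst7 and Antxr2 most like Tgfb1, with r from 0.986 (Gm37671) to 0.999 (Cst7 and Antxr2). With 6 points and 13352 genes to choose from, values this high describe the shape shared by these libraries only.

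The 4 CC chemokine genes lie in a cluster on chromosome 11, Ccl9 at chr11:83572919-83578636, Ccl6 at chr11:83587882-83593087 and Ccl3 at chr11:83647844-83649355 on the minus strand and Ccl4 at chr11:83662584-83664683 on the plus strand. They were near the counting floor, with 69, 62, 37 and 19 counts over all 6 libraries, and were not tested in the main edgeR fit. Raw counts were highest in CBM replicate 2 for Ccl3 and Ccl6 and in EBM replicate 2 for Ccl9, whereas the 6 tested genes were highest in EBM replicate 1. Ccl3 had 1, 25 and 3 counts in the CBM libraries and 1, 7 and 0 in those of EBM. The exact Poisson 95% interval of the 25 counts in CBM replicate 2 (16.2 to 36.9) did not reach that of any other library, the next being 2.81 to 14.4 in EBM replicate 2.

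Ccl6 had 3, 34 and 1 counts in the CBM libraries and 10, 12 and 2 in those of EBM, and its overlapping antisense gene E230016K23Rik had at most 1. CBM replicate 2 again stood above every other library beyond counting error (23.5 to 47.5 against 6.20 to 21.0 in EBM replicate 2). Ccl9 had 0, 15 and 3 counts in the CBM libraries and 5, 40 and 6 in those of EBM, with EBM replicate 2 highest (28.6 to 54.5) and CBM replicate 2 next (8.40 to 24.7). The interval of CBM replicate 2 overlapped those of CBM replicate 3 and EBM replicates 1 and 3. Ccl4 had 3, 6 and 0 counts in the CBM libraries and 5, 5 and 0 in those of EBM, and no difference between its libraries was detectable at this depth, since all its intervals overlapped. For a library at 0 counts the exact Poisson interval reached 3.69 counts. Between the regions, the sums were 29 and 8 counts for Ccl3, 38 and 24 for Ccl6, 18 and 51 for Ccl9 and 9 and 10 for Ccl4, in CBM and EBM, and no common direction was seen.

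**Figure D3:**
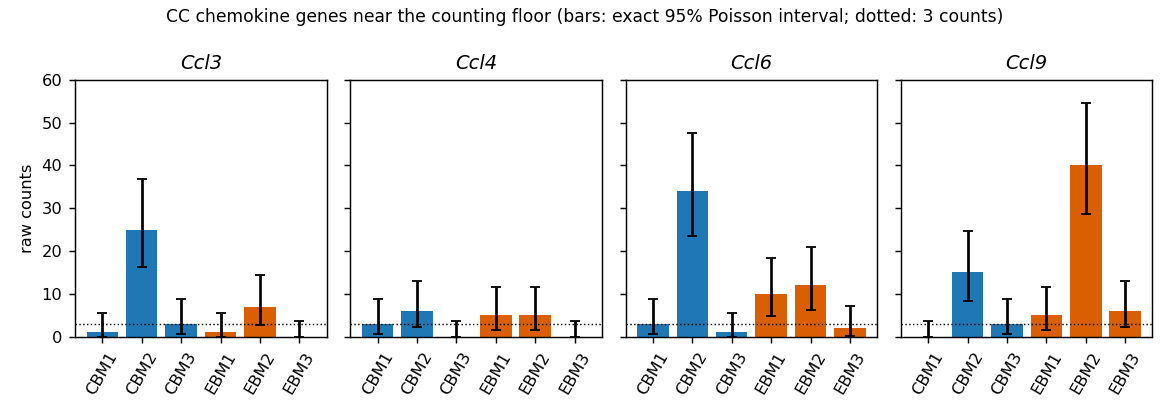
Raw counts (y axis, from 0) of the 4 CC chemokine genes in each CBM (blue) and EBM (orange) library, with exact 95% Poisson intervals and a dotted line at 3 counts. CBM replicate 2 is highest for Ccl3 (25) and Ccl6 (34) and EBM replicate 2 for Ccl9 (40).

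Of the markers of mature myeloid cells, the sums for neutrophils and macrophages were highest in CBM replicate 2 and EBM replicate 2. The sum for monocytes was highest in EBM replicate 2 only. The 9 neutrophil markers, all counted, summed to 8.08, 236 and 3.37 CPM in the CBM libraries and 50.1, 166 and 35.6 CPM in those of EBM, led by S100a9, while Ly6g was at 0 counts in CBM replicates 1 and 3 and EBM replicate 1. The 6 monocyte markers, led by Ccr2, summed to 18.7, 17.1 and 13.2 CPM in the CBM libraries and 22.1, 42.4 and 11.2 CPM in those of EBM, so that CBM replicate 2 was not the highest CBM library. Ccr2, the bulk of this sum, was itself lowest of the CBM libraries there, at 9.42 CPM. Ly6c2, Fn1, F13a1, Ms4a6c and Cx3cr1 were instead highest of the CBM libraries in CBM replicate 2. Ly6c2 had 77 counts there and Fn1 38, while Ms4a6c and Cx3cr1 had 6 and 3. The 10 macrophage markers, led by Cd68, summed to 5.95 to 10.4 CPM in CBM and to 5.53 to 8.74 CPM in EBM, highest in CBM replicate 2, and Mertk was at 0 counts in 4 libraries. Cd68 itself did not peak there, with 6.20, 5.21 and 4.02 CPM in the CBM libraries and 3.64, 3.67 and 3.47 CPM in those of EBM. The part of such cells in the CC chemokine counts was not tested.

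**Figure D4:**
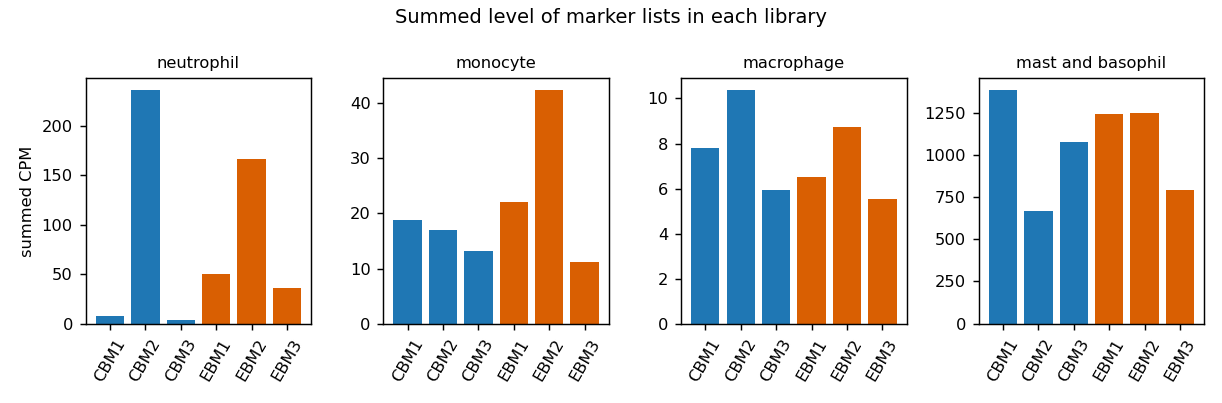
Summed CPM (y axes from 0, a different range in each panel) of the neutrophil, monocyte, macrophage and mast cell and basophil marker lists in each CBM (blue) and EBM (orange) library. Neutrophil markers peak in CBM replicate 2 (236) and EBM replicate 2 (166), and mast cell and basophil markers are lowest in CBM replicate 2 (666) and EBM replicate 3 (792).

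Most receptors for these ligands were hardly counted in the same RNA. Of 16 receptor genes 4 were tested, 2 of them higher and 2 lower in EBM (median 0.00 on the log2 scale). In edgeR 0 passed at an adjusted or at an unadjusted p under 0.05, the latter against 7.91% of all genes. The best counted were Eng and Tgfbr2, which bind Tgfb1. Eng, a co-receptor, was at 51.8 ± 12.4 CPM in CBM and 44.7 ± 13.1 CPM in EBM, and Tgfbr2 was at 49.6 ± 12.3 CPM for CBM against 45.9 ± 10.2 CPM for EBM (SD, n = 3 each), with edgeR adjusted p of 0.925 and 0.980. Ackr1, a decoy receptor for chemokines, was at 3.64 to 8.93 CPM, and Tgfbr1, the signalling partner of Tgfbr2, at 0.450 to 2.98 CPM. For the inflammatory ligands, Cxcr2 had 1 to 20 counts per library, Tnfrsf1a 1 to 16, Tnfrsf1b 0 to 41, Il6ra 0 to 18, Il6st 1 to 16 and Ccr1 2 to 17. Cxcr3 and Osmr had at most 1 count in any library. Ccr1, Il6ra and Tnfrsf1a were highest in CBM replicate 2 and EBM replicate 2, the libraries high in neutrophil markers, but others were not. Cxcr2 had 20 counts in CBM replicate 2 and only 2 in EBM replicate 2. Tnfrsf1b had 41 in EBM replicate 2 and 14 in EBM replicate 1, above the 10 in CBM replicate 2.

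Among 29 other chemokine ligands, 6 were tested and 17 had at most 3 counts in every library, with 0 passing the adjusted threshold in edgeR (median log2 fold change 0.63). At an unadjusted p under 0.05 there was 1, Cxcl16, a chemokine that is also a membrane protein, at 0.899 ± 0.520 CPM for CBM against 3.51 ± 1.99 CPM for EBM (SD, n = 3 each, log2 fold change 1.97, standard error 0.62, edgeR adjusted p = 0.496). Next by p were Ccl25 (-0.40 on the log2 scale, edgeR adjusted p = 0.776), the only one of the 6 whose regions did not overlap, and Ccl27a (0.47, edgeR adjusted p = 0.810). Over all genes, 7.91% had an unadjusted p under 0.05 and 15.1% did not overlap.

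Of 52 other cytokine ligands, 16 were tested, 11 higher and 5 lower in EBM (median 0.62 on the log2 scale), with again 0 past the adjusted threshold in edgeR. At an unadjusted p under 0.05 there were 3 of the 16, Il1b, Il1a and Il4, all higher in EBM, where 4.01% of all genes were higher. The same 3 were those whose regions did not overlap, against 15.1% of all genes. Il1b, a pyrogenic cytokine that needs cleavage by caspase-1, had 580, 95 and 169 raw counts in the CBM libraries and 3770, 3048 and 993 raw counts in those of EBM. Its lowest EBM library was above its highest CBM library, unlike any of the 6 tested genes, although CBM replicate 1 and EBM replicates 1 and 2 were again the high libraries of their regions. The log2 fold change was 3.26 for Il1b, 2.68 for Il1a and 0.69 for Il4, a mast cell and type 2 cytokine, with edgeR adjusted p of 0.331, 0.415 and 0.414.

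Proteins that process the ligands did not share a direction. Of 10 tested, 5 were higher and 5 lower in EBM, and 0 passed in edgeR at an adjusted p of 0.05. At an unadjusted p under 0.05 there were 0 above and 2 below, where 4.01% of all genes were higher and 3.9% lower. Regions did not overlap for 2 of the 10, against 15.1% of all genes. Adam17, the sheddase of Tnf, was at 65.3 ± 7.12 CPM for CBM against 51.0 ± 2.52 CPM for EBM (SD, n = 3 each), with every EBM library below every CBM library (log2 fold change -0.36, standard error 0.11, edgeR adjusted p = 0.479). Mmp14, a membrane metalloprotease, had a log2 difference of -0.32 (edgeR adjusted p = 0.404). Furin, which cleaves the Tgfb1 precursor, was at 207 ± 82.9 CPM for CBM against 351 ± 133 CPM for EBM (SD, n = 3 each), with overlapping libraries and a log2 difference of 0.76 (edgeR adjusted p = 0.678).

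Of 26 signal transducers tested, 17 were higher and 9 lower in EBM (median 0.06 on the log2 scale), and 0 passed the adjusted threshold in edgeR. At an unadjusted p under 0.05 there were 5 above and 0 below, where 4.01% of all genes were higher and 3.9% lower. Regions did not overlap for 5 of the 26, against 15.1% of all genes. The smallest p were those of Traf2, Birc3 and Birc2, which act together at the Tnf receptor. Traf2 was at 46.0 ± 3.40 CPM for CBM against 65.0 ± 4.01 CPM for EBM (SD, n = 3 each), with no overlap (log2 fold change 0.50, standard error 0.10, edgeR adjusted p = 0.237). Birc3 and Birc2 had log2 fold changes of 1.33 and 0.41 (edgeR adjusted p = 0.306 and 0.434), also without overlap. So had Jak1 (0.16, edgeR adjusted p = 0.696) and, lower in EBM, Map3k7 (-0.19, edgeR adjusted p = 0.678).

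**Figure D5:**
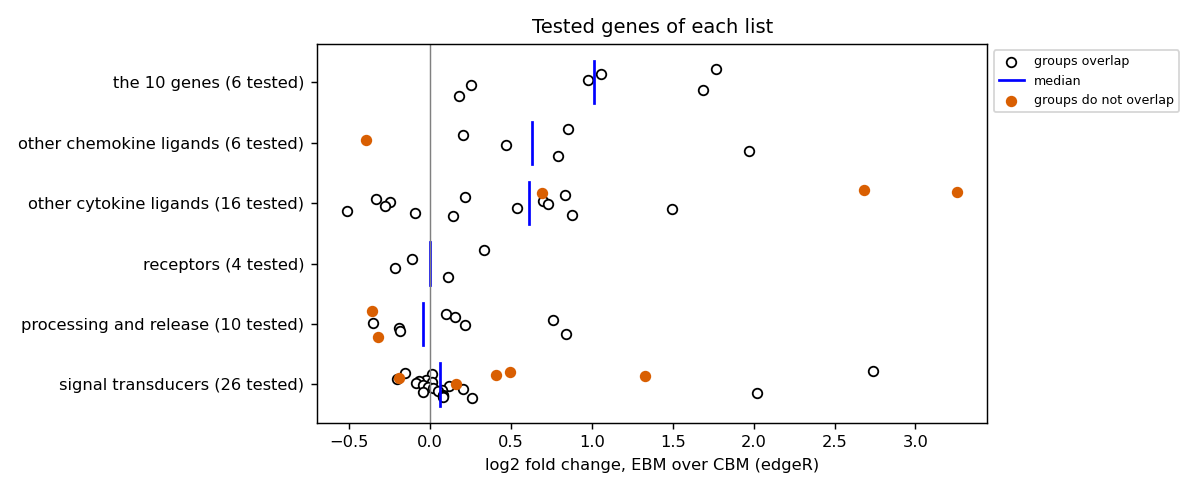
Log2 fold change of EBM over CBM (x axis) for each tested gene of the 10 genes and of the 5 related lists, filled in orange where the CPM of the regions did not overlap, with the list median as a blue line. The medians are 1.02 for the 6 tested genes, 0.63 for other chemokines, 0.62 for other cytokines and 0.00 for receptors.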

How the data were processed

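RNA-seq libraries (NEBNext Ultra Directional kit, from rRNA-depleted RNA in the study's methods) were sequenced as paired-end reads. The labels give the library type as mRNA. The authors deposited raw counts per gene, without normalization. Their processing notes name HISAT2 2.0.5 and mm10. The counting tool and its strand setting are not given in the sources used here, so reads of antisense overlaps are uncertain. Gene spans of the 10 genes were identical in GENCODE M21 (GRCm38), and gene lengths were used as deposited. No library was a duplicate of another of its region, since every pair within a region gave a chi-square over degrees of freedom of 11.9 or more. Pairs across regions were not compared in this way.

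From 54532 genes, 13352 passed filterByExpr of edgeR 4.0.16 and were TMM scaled and tested with the quasi-likelihood method, p-values being adjusted over all of them (Benjamini-Hochberg, 0.05). The standard error is the log2 fold change divided by the root of F, and intervals use the same degrees of freedom. Log2 CPM had a prior count of 2. On simulated counts with 200 of 13352 genes changed, 152 were called, with 8 unchanged genes, and 48.5% of those changed by 1 on the log2 scale. Alternatives were DESeq2 1.42.0, limma-voom (limma 3.58.1), RLE size factors, other count filters, the replicate number as a block and each library left out.

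The genes, lists, motifs and alternatives were chosen with earlier results of these data known. Named beside the 10 genes were, in each related list, the genes past the threshold or else the 3 smallest p, the most abundant marker of the lists used, and the 2 genes most like each tested gene. Other genes were named after their values were seen.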

Additional observations from a re-analysis of the deposited data

How the results depend on the processing

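The count of chemokine and cytokine genes at an adjusted p under 0.05 was 0 under every alternative run. Over all genes it was 0 in edgeR, 175 in DESeq2 and 40 in edgeR when every gene with at least 1 count was tested, and 0 under the others. The direction of Cxcl2, Cxcl10, Tnf, Il6 and Osm was the same in 12 of 12 alternatives. Tgfb1 turned in 2 of 12, without CBM replicate 2 (-0.072) and without EBM replicate 1 (-0.023), and reached 0.49 without CBM replicate 1. Leaving out single libraries gave 1.18 to 3.06 for Cxcl2, 0.67 to 1.62 for Cxcl10, 0.54 to 2.37 for Tnf, 1.17 to 4.10 for Il6 and 0.10 to 0.50 for Osm, highest without CBM replicate 1 for all 6 genes. Over the alternatives that kept all libraries the ranges were 1.76 to 1.998, 1.05 to 1.27, 0.97 to 1.42, 1.67 to 2.19 and 0.25 to 0.28. Same-numbered libraries deviated together for number 1 (r = 0.68) and weakly for number 3 (r = 0.20) but in opposite directions for number 2 (r = -0.20), so the numbers were not taken to pair the samples. With the replicate block the count stayed 0 for these genes and for all genes (1203 at an unadjusted p under 0.05), the log2 fold change of Cxcl2 was 1.92 (edgeR adjusted p = 0.366) and that of Cxcl10 was 1.21 (edgeR adjusted p = 0.467). Ligands below the count filter were not tested in the main edgeR fit. When every gene with at least 1 count was tested, 0 of the 10 genes passed an adjusted p of 0.05. In simulated data 48.5% of changes of 1 on the log2 scale, the smallest size simulated, were called. The simulation gave each gene the spread typical of its level, so this share does not hold for Il6, Cxcl2 and Tnf. It may not hold for Cxcl10, Tgfb1 and Osm either. The SD of log2 CPM within regions was 2.13 for Il6, 1.39 for Cxcl2, 1.28 for Tnf, 0.81 for Cxcl10, 0.54 for Tgfb1 and 0.35 for Osm. The median over all genes was 0.22.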

Other observations

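Further genes of the related lists were picked after their values were seen, and the first pair lay below the count filter. Ccl1, a CC chemokine known from mast cells and T cells, had 0 counts in all CBM libraries and 23, 20 and 1 in EBM replicates 1 to 3. Cxcl3, which shares the receptor Cxcr2 with Cxcl2, had 6, 2 and 0 counts in the CBM libraries and 18, 21 and 0 in those of EBM. Tnfsf14, a ligand of the Tnf family, was tested and had 351, 20 and 136 counts in the CBM libraries and 577, 329 and 10 in those of EBM, with a log2 difference of 0.88 (edgeR adjusted p = 0.954). Traf1, an adaptor that NF-κB induces, had 134, 18 and 47 counts in the CBM libraries and 786, 461 and 50 in those of EBM, with a log2 difference of 2.74 (edgeR adjusted p = 0.582). Skil, an inhibitor of Smad signalling that Tgfb1 induces, had 8, 12 and 12 counts in the CBM libraries and 64, 52 and 7 in those of EBM, with a log2 difference of 2.02 (edgeR adjusted p = 0.545). Smad7 and Ski of the same list had log2 differences of -0.04 and 0.08 (edgeR adjusted p = 0.989 and 0.971).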
